A study of Mus musculus with 36 samples.

Results

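Resident and recruited macrophages of the infarcted mouse heart were followed through 10 genes, read from the gene expression table by their symbols. Lyve1, Timd4, Folr2, Cd163 and Mrc1 form the resident set, and Chil3, Arg1, Ly6c2, Trem2 and Gpnmb the recruited or repair set. All 10 were found among the 16415 genes of the table, and 9 of them passed the filter on low values, with Timd4 below it. Left ventricles had been taken from C57BL/6 mice, males 8 weeks old at surgery, after myocardial infarction (MI) by ligation of the left anterior descending coronary artery, or after a sham operation in which the artery was not closed. Tissue was collected at 3 stages, 1 day, 1 week or 8 weeks from surgery, with 3 mRNA libraries per group and stage, 18 in all. The labels describe pooled ventricles and do not give the number of animals in a library, so the p-values below measure the spread between these libraries only. Levels are FPKM, fragments per kilobase of transcript scaled by the mapped fragments of the library, and fold changes are differences of log2(FPKM + 1).

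The adult heart holds resident macrophages, many of embryonic origin, that renew themselves locally, clear dying cells and debris, and are recognized in mice by Lyve1, Timd4 and Folr2. After infarction, monocytes with high surface Ly6C enter from the blood and turn into macrophages that first digest the necrotic muscle and later take part in scar formation. Arg1 and Chil3 are classic genes of interleukin 4 and injury responses in mouse macrophages, while Trem2 and Gpnmb mark lipid-laden, phagocytic macrophages in several diseased tissues.

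The infarcted ventricle changed the make-up of the 2 sets at each stage. Chil3, Arg1 and Ly6c2 peaked at 1 day, Trem2 and Gpnmb at 1 week, and all 5 resident genes had their highest MI value in 1 library of 8 weeks. Summed over its 5 genes, the resident set came to 28.8 to 30.7 FPKM in MI libraries and 16.1 to 24.9 FPKM in sham libraries at 1 day, and to 41.3 to 46.9 FPKM in MI libraries and 17.8 to 31.2 FPKM in sham libraries at 1 week. Its sum was thus above sham in every MI library at both stages. At 1 week Mrc1 made up the largest part of that sum in the MI libraries, and Cd163 was called lower. The mean log2(FPKM + 1) of the 5 genes did not overlap between groups at 1 day. At 1 week it did, at 2.35 to 2.53 in MI libraries and 2.02 to 2.61 in sham libraries. The median log2 fold change over all genes tested was 0.79 at that stage. At 8 weeks the resident sum was 20.3, 59.4 and 105 FPKM in the MI libraries and 20.9 to 26.8 FPKM in the sham libraries, which overlapped. The recruited or repair set came to 554 to 696, 243 to 311 and 83.3 to 97.4 FPKM in MI libraries by rising stage, and to at most 14.6 FPKM in any sham library. Because this second sum was so much higher, the resident set made up a smaller part of both, 4.17 to 4.94% in MI libraries and 57.2 to 68.8% in sham libraries at 1 day. At 1 week the share was 12 to 16.2% in MI libraries and 80.6 to 82.9% in sham libraries. At 8 weeks it was 18, 41.6 and 52.0% in the MI libraries and 82.2 to 82.7% in the sham libraries. MI and sham libraries did not overlap in this share at any stage. At 1 day and 1 week the lower share did not come with a lower resident sum in FPKM. The sum was not computed under the 3 other scalings of the libraries, where Lyve1 and Cd163 were called lower and Mrc1 higher at 1 week. In bulk tissue, more or fewer cells of a type and more or less RNA per cell cannot be told apart.

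The libraries were of left ventricle with abundant muscle RNA: 6 cardiomyocyte markers summed to 1713 to 14901 FPKM in MI libraries and 16037 to 20160 FPKM in sham libraries. The deposited table holds no counts. The spacing of low FPKM values implied 26.8 to 36.9 × 10⁶ fragments per library, with 74.5 to 84.5% of low values within 0.2 of a whole fragment, where 40% would fall if they were evenly spread. The median log2 fold change over the 12858 genes tested was 0.09, 0.79 and 0.52 by rising stage, and a change near that median is no larger than that of a typical gene.

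Promoters are shown for 4 members whose windows held letters searched for and whose levels moved in 2 different ways. Trem2, Gpnmb and Mrc1 had their highest mean MI level at 1 week, and Ly6c2 at 1 day. Windows of members without such letters, Chil3 among them, are not shown. RefSeq promoter windows of build GRCm38.p6 run over 300 bases, 250 before and 50 after the annotated start, and were matched for 8 of the 10 members. Capitals mark matches, on either strand, to the PU.1 core GAGGAA (read as TTCCTC on the other strand), the AP-1 letters TGANTCA and the C/EBP letters TTGCNNAA, all written 5′ to 3′.
Trem2 (chr17:48346151-48346450, plus strand): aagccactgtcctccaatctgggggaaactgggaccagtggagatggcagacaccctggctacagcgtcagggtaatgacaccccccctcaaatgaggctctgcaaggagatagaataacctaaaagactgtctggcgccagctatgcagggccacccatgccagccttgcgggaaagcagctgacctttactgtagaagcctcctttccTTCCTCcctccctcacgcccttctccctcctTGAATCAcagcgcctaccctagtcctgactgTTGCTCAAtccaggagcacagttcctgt
Gpnmb (chr6:49036268-49036567, plus strand): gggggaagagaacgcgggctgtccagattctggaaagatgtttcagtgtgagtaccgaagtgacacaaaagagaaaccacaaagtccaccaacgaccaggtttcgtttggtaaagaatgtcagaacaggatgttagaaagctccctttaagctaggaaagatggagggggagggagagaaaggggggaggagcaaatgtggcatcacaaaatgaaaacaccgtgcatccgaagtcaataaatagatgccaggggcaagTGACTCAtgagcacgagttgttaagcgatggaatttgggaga
Mrc1 (chr2:14229164-14229463, plus strand): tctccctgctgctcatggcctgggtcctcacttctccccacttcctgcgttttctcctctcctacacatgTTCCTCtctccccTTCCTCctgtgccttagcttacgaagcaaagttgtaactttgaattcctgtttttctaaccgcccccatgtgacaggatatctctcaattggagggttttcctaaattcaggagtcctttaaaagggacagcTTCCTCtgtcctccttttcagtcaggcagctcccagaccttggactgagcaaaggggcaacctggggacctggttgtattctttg
Ly6c2 (chr15:75111922-75112221, minus strand): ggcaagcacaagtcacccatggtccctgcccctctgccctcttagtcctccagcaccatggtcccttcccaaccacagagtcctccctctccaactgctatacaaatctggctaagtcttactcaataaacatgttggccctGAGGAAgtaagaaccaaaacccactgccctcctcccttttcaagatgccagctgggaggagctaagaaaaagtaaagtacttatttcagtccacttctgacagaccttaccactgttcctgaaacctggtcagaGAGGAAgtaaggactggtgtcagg

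The Trem2 window held a PU.1 core at position -40, an AP-1 match at -9 and a C/EBP match at 23, counted from the start site. The Gpnmb window held 1 AP-1 match, at 9, and no PU.1 core. Mrc1 had 3 PU.1 cores, at -180, -167 and -35, and the Ly6c2 window shown had 2, at -108 and 27. Over 32851 RefSeq promoter windows of the same length, 28.3% held the PU.1 core, 7.81% the AP-1 letters and 10.8% the C/EBP letters. The windows of Timd4, Cd163 and Chil3 held none of these letters, and the second of the Folr2 windows held an AP-1 match at -74. A further search of the same windows for the E-box CACGTG, the M-box TCATGTG of MITF and TFE factors, and the STAT6 motif found none in the 8 members matched, against 7.15%, 3.77% and 6.95% of all windows. A match describes letters only, and no binding was measured.

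**Figure D1:**
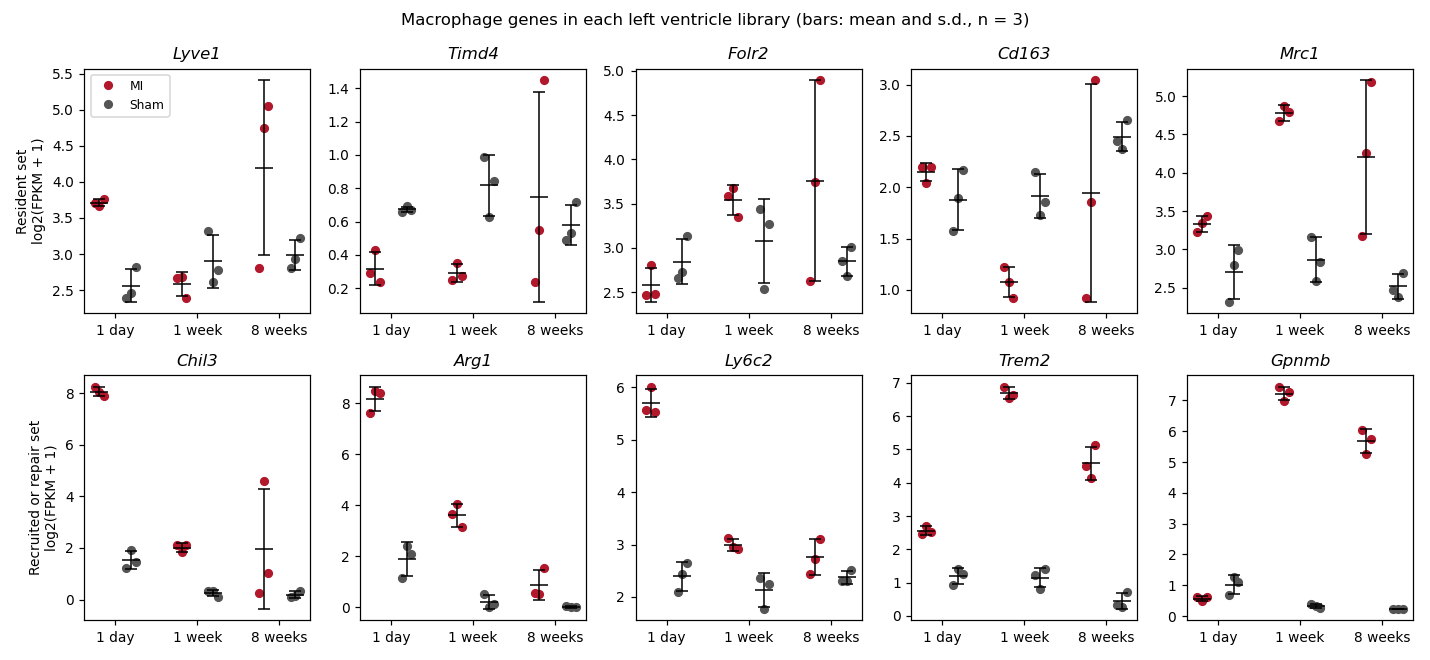
Level of each gene in every library, as log2(FPKM + 1), by stage, with MI (red) left of sham (grey). The upper row holds the resident set and the lower row the recruited or repair set. Points are libraries, and bars are the mean and s.d. of 3. Chil3, Arg1 and Ly6c2 stand highest at 1 day of MI and Trem2 and Gpnmb at 1 week, while the resident genes spread widely among the 3 MI libraries of 8 weeks.

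At 1 day, Chil3, Arg1 and Ly6c2 were the members with the highest MI levels. Chil3 encodes a secreted chitinase-like protein, Ym1, that binds sugars without cleaving chitin (GRCm38.p6 chr3:106147554-106167564, minus strand). Chil3 had 304, 264 and 235 FPKM in the MI libraries, against 1.33, 2.76 and 1.73 FPKM in the sham libraries, at 1 day. Arg1 encodes arginase 1, which splits arginine into ornithine and urea (chr10:24915207-24927470, minus strand). Arg1 had 198, 363 and 339 FPKM in the MI libraries, against 1.21, 4.36 and 3.26 FPKM in the sham libraries. The groups did not overlap for either gene, and the ratio of means was 138 for Chil3 and 102 for Arg1. Ly6c2, one of the genes for the monocyte surface antigen Ly6C (chr15:75108161-75112066, minus strand), had 46.3, 63.6 and 45.2 FPKM in the MI libraries and 3.27, 4.39 and 5.29 FPKM in the sham libraries. Its ratio of means was 12, again without overlap.

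In limma over all genes, Chil3 was higher by 6.54 ± 0.70 log2 (± s.e.; adjusted p = 4.88e-07), Arg1 by 6.30 ± 0.34 (adjusted p = 2.85e-10) and Ly6c2 by 3.31 ± 0.19 (adjusted p = 6.60e-10). Trem2, a lipid receptor that signals through the adaptor Tyrobp (chr17:48346401-48352276, plus strand), was already higher at 1 day, with 4.47, 5.50 and 4.78 FPKM in MI libraries and 0.894, 1.67 and 1.39 FPKM in sham libraries. The rise of Trem2 was 1.36 ± 0.21 log2 (adjusted p = 3.30e-05). Gpnmb encodes a transmembrane glycoprotein of lysosomes and melanosomes (chr6:49036518-49058182, plus strand). Gpnmb was the only recruited or repair gene that was lower at 1 day, with 0.532, 0.394 and 0.527 FPKM in MI libraries and 0.598, 1.39 and 1.16 FPKM in sham libraries. The difference of Gpnmb was -0.45 ± 0.17 log2 (adjusted p = 0.0303), at levels near or below 1 FPKM, and the call was lost without either of 2 MI or either of 2 sham libraries, where the difference lay between -0.47 and -0.32.

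Among resident genes at 1 day, only Lyve1 passed the test. Lyve1, a hyaluronan receptor of resident macrophages and of lymphatic vessels (chr7:110850607-110862953, minus strand), had 12.1, 11.7 and 12.6 FPKM in the MI libraries and 4.26, 4.52 and 6.05 FPKM in the sham libraries. All 3 MI libraries lay above the sham libraries, by 1.15 ± 0.39 log2 (adjusted p = 0.0150). Mrc1, the mannose receptor CD206 (chr2:14229414-14332023, plus strand), had 8.37, 9.18 and 9.82 FPKM in MI libraries and 3.96, 5.97 and 6.99 FPKM in sham libraries. These groups did not overlap, but the difference of 0.63 ± 0.33 log2 did not pass (adjusted p = 0.102). It passed when the 1-day libraries were fitted alone (adjusted p = 0.00510) and when MI library 1 or 3 of 8 weeks was left out of the shared spread.

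Folr2, the folate receptor beta of macrophages (chr7:101839988-101857190, minus strand), had 4.52, 5.99 and 4.55 FPKM in MI libraries and 5.33, 5.62 and 7.76 FPKM in sham libraries at 1 day. Cd163, the receptor for haemoglobin bound to haptoglobin (chr6:124304636-124330529, plus strand), had 3.58, 3.12 and 3.59 FPKM in MI libraries and 1.98, 2.72 and 3.48 FPKM in sham libraries. Both genes had overlapping groups, with differences of -0.26 ± 0.38 log2 for Folr2 (adjusted p = 0.564) and 0.27 ± 0.34 log2 for Cd163 (adjusted p = 0.501). Timd4, a receptor for phosphatidylserine on dying cells (chr11:46810786-46844333, plus strand), had 0.224, 0.344 and 0.177 FPKM in MI libraries and 0.580, 0.614 and 0.589 FPKM in sham libraries. Every MI library lay below every sham library, and the exact two-sided permutation test of 3 against 3 gave p = 0.1, the smallest it can give. The spacing of low values put these levels at about 11 to 109 fragments of Timd4 per library over all stages.

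In counts, 4 of 5 recruited or repair genes and 1 of 4 resident genes tested were higher at 1 day, where 39.7% of all genes were called higher. One gene of the 9, Gpnmb, was lower, against 30.6% of all genes. Neutrophil markers moved in the same libraries: the 9 markers found summed to 6088 to 9897 FPKM in MI libraries and 18.5 to 38.5 FPKM in sham libraries at 1 day, and all 8 of those tested were called higher. Retnlg, a neutrophil gene of the resistin-like family, averaged 722 ± 202 FPKM in MI libraries and 0.80 ± 0.42 FPKM in sham libraries (s.d., n = 3 each). The part of neutrophil RNA in the 1-day levels of Chil3, Arg1 and Ly6c2 was not tested.

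**Figure D2:**
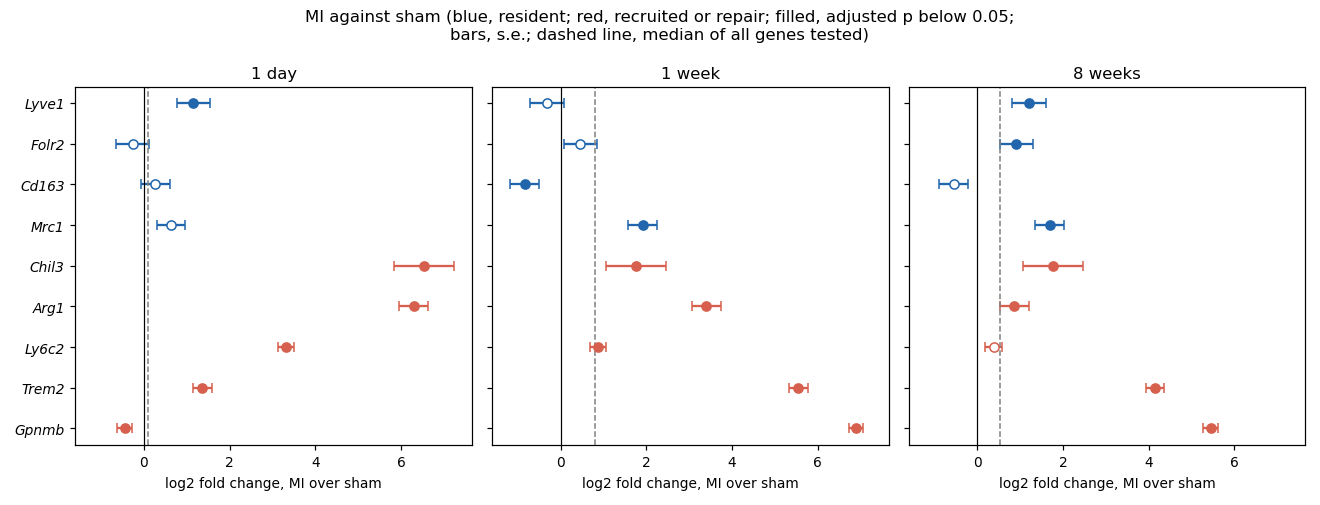
Log2 fold change of MI over sham with its s.e. for the 9 genes tested, by stage. Filled points passed an adjusted p of 0.05, blue marks the resident and red the recruited or repair set, and the dashed line is the median over all 12858 genes tested, 0.09, 0.79 and 0.52. Trem2 and Gpnmb lie farthest to the right at 1 week and 8 weeks, and Cd163 is the only gene left of 0 with a filled point at 1 week.

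At 1 week, the phagocytic genes Trem2 and Gpnmb replaced Chil3 and Arg1 as the leading members. Gpnmb had 171, 125 and 153 FPKM in the MI libraries and 0.304, 0.260 and 0.210 FPKM in the sham libraries. Trem2 had 118, 93.3 and 99.4 FPKM in the MI libraries and 1.35, 0.767 and 1.64 FPKM in the sham libraries. The ratio of means was 580.2 for Gpnmb and 82.7 for Trem2, with no overlap, and the log2 fold changes were 6.89 ± 0.17 (adjusted p = 5.81e-13) and 5.55 ± 0.21 (adjusted p = 2.40e-11). Gpnmb is also a gene of pigment cells. Of 4 melanocyte markers looked for, 3 were found, and these summed to at most 1.01 FPKM in any library. Which cells held the Gpnmb RNA was not tested.

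Chil3 and Arg1 were still above sham at 1 week but far below their 1-day levels. Arg1 had 11.7, 15.4 and 7.82 FPKM in MI libraries, while the sham libraries had 0.449 and 0.0843 FPKM and 1 library was listed at 0. Chil3 had 3.29, 2.54 and 3.32 FPKM in MI libraries and 0.245, 0.246 and 0.0804 FPKM in sham libraries. Ly6c2 had 7.73, 6.75 and 6.53 FPKM in MI libraries and 4.16, 2.41 and 3.78 FPKM in sham libraries. None of these groups overlapped, and the differences were 3.40 ± 0.34 log2 for Arg1 (adjusted p = 1.11e-07), 1.76 ± 0.70 for Chil3 (adjusted p = 0.0259) and 0.87 ± 0.19 for Ly6c2 (adjusted p = 0.000500). The Ly6c2 difference lay close to the median of all genes, 0.79, and under the 3 other scalings of the libraries it was 0.01 to 0.06 and did not pass. Chil3 did not pass under those scalings either, at 1.00 to 1.25, nor without MI library 1 or 3 or sham library 3, at 1.70 to 1.72 (adjusted p of 0.0570 to 0.0609).

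The resident genes parted at 1 week. Mrc1 had 24.5, 28.3 and 26.8 FPKM in the MI libraries and 7.99, 5.01 and 6.15 FPKM in the sham libraries, a rise of 1.92 ± 0.33 log2 (adjusted p = 5.16e-05). Cd163 had 1.33, 1.11 and 0.897 FPKM in the MI libraries and 3.43, 2.32 and 2.62 FPKM in the sham libraries, and was lower by -0.84 ± 0.34 log2 (adjusted p = 0.0296). Neither gene's groups overlapped. The Cd163 call was lost without MI library 2 or 3 or sham library 1 or 3, with adjusted p from 0.0513 to 0.0936.

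Lyve1 had 5.36, 5.41 and 4.23 FPKM in MI libraries and 8.94, 5.14 and 5.83 FPKM in sham libraries, and Folr2 had 11, 11.8 and 9.21 FPKM in MI libraries and 9.83, 4.80 and 8.61 FPKM in sham libraries. Both overlapped between the groups and did not pass, with -0.32 ± 0.39 log2 for Lyve1 (adjusted p = 0.438) and 0.46 ± 0.38 for Folr2 (adjusted p = 0.262). Under the 3 other scalings Lyve1 was called lower, by -1.21 to -1.12 log2. Timd4 had 0.187, 0.275 and 0.208 FPKM in MI libraries and 0.983, 0.542 and 0.791 FPKM in sham libraries, again without overlap (exact permutation p = 0.1, the smallest possible), and without the filter limma called it lower (-0.53 log2, adjusted p = 0.0282).

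All 5 recruited or repair genes and 1 of 4 resident genes were higher at 1 week, when 72.8% of all genes were called higher. Cd163 was the 1 member called lower, against 16.5% of all genes.

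At 8 weeks, Trem2 and Gpnmb stayed high while the resident genes differed widely from 1 MI library to another. Gpnmb had 65.3, 37.3 and 53.0 FPKM in the MI libraries and 0.178, 0.183 and 0.172 FPKM in the sham libraries. Trem2 had 21.8, 16.6 and 33.8 FPKM in the MI libraries and 0.266, 0.211 and 0.645 FPKM in the sham libraries. Gpnmb was higher by 5.45 ± 0.17 log2 (adjusted p = 4.28e-12) and Trem2 by 4.14 ± 0.21 log2 (adjusted p = 8.12e-10), with every MI library above every sham library.

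Lyve1 had 5.99, 25.8 and 32.1 FPKM in the MI libraries and 6.00, 6.66 and 8.31 FPKM in the sham libraries at 8 weeks. Folr2 had 5.17, 12.4 and 28.8 FPKM in the MI libraries and 6.20, 5.44 and 7.07 FPKM in the sham libraries. For both, MI library 1 lay below all sham libraries, barely so for Lyve1, and the other 2 lay above them. Lyve1 passed with 1.21 ± 0.39 log2 (adjusted p = 0.00986) and Folr2 with 0.91 ± 0.38 log2 (adjusted p = 0.0393). Without MI library 3 the differences were 0.79 (adjusted p = 0.0646) for Lyve1 and 0.34 (adjusted p = 0.290) for Folr2, and neither passed. Nor did they pass without MI library 2 (0.94 and adjusted p = 0.0551 for Lyve1, 0.91 and adjusted p = 0.0729 for Folr2), and the Folr2 call was also lost without any 1 of the sham libraries, at adjusted p of 0.0533 to 0.0997. With the 8-week libraries fitted alone neither passed (adjusted p = 0.0855 for Lyve1 and 0.149 for Folr2), and under the 3 other scalings neither passed, at 0.56 to 0.68 for Lyve1 and 0.26 to 0.34 for Folr2.

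Mrc1 had 8.04, 18.2 and 35.5 FPKM in the MI libraries and 4.55, 4.20 and 5.47 FPKM in the sham libraries at 8 weeks, and was the 1 resident gene whose groups did not overlap. Its rise was 1.69 ± 0.33 log2 (adjusted p = 0.000278). Cd163 had 0.898, 2.63 and 7.27 FPKM in the MI libraries and 4.46, 4.19 and 5.29 FPKM in the sham libraries, with a difference of -0.55 ± 0.34 log2 (adjusted p = 0.147). Libraries 1 and 2 lay below all sham libraries and library 3 above them, and without library 3 Cd163 was called lower by -1.10 log2 (adjusted p = 0.000342). Under the 3 other scalings it was called lower with all libraries, by -1.27 to -1.13. Timd4 had 0.181, 0.461 and 1.74 FPKM in MI libraries and 0.405, 0.444 and 0.642 FPKM in sham libraries, with overlap (exact permutation p = 0.8).

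Of the other recruited or repair genes, Arg1 had 0.482, 0.443 and 1.94 FPKM in the MI libraries at 8 weeks, and in the sham libraries 0.0417 FPKM in 1 and a listed 0 in the other 2. Chil3 had 0.193, 23.4 and 1.01 FPKM in MI libraries and 0.0795, 0.0936 and 0.264 FPKM in sham libraries, so that a single library carried its mean. Ly6c2 had 4.41, 5.60 and 7.65 FPKM in MI libraries and 3.96, 3.92 and 4.70 FPKM in sham libraries. Arg1 did not overlap between groups, and the other genes did. Arg1 was higher by 0.86 ± 0.34 log2 (adjusted p = 0.0276) and Chil3 by 1.76 ± 0.70 log2 (adjusted p = 0.0291), while Ly6c2 at 0.38 ± 0.19 log2 did not pass (adjusted p = 0.0767). Without MI library 2 the Chil3 difference was 0.44 log2 and did not pass (adjusted p = 0.0731), nor did it without sham library 1 or 2 or with the 8-week libraries fitted alone (adjusted p = 0.159). Without MI library 3 the Arg1 difference was 0.53 (adjusted p = 0.156), and the call was also lost without any 1 of the sham libraries. Without MI library 1, Ly6c2 passed at 0.54 (adjusted p = 0.0162).

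In all, 4 of 5 recruited or repair genes and 3 of 4 resident genes were higher at 8 weeks, when 70.4% of all genes were called higher, and no member was lower, against 10.6% of all genes. Under each of the 3 other scalings only 3 members were higher, Mrc1, Trem2 and Gpnmb, and Cd163 was lower. The 3 MI libraries of 8 weeks also differed in markers of macrophages and of other tissues. The 10 pan-macrophage genes summed to 766, 1113 and 2039 FPKM in MI libraries 1, 2 and 3 and to 111 to 165 FPKM in sham libraries. Fibroblast markers summed to 868, 1867 and 2709 FPKM in the same MI libraries and 175 to 180.4 FPKM in sham libraries, and cardiomyocyte markers to 14901, 10430 and 7399 FPKM in the MI libraries and 18382 to 19573 FPKM in sham libraries. Adipocyte markers summed to 1.64, 264 and 1215 FPKM in MI libraries 1, 2 and 3 and to 0.413 to 0.697 FPKM in sham libraries. Mesothelial markers summed to 11.3, 23.4 and 176 FPKM in the MI libraries and 0.886 to 1.35 FPKM in the sham libraries. Library 3, highest in every resident gene, was highest in the pan-macrophage, fibroblast, adipocyte and mesothelial lists and lowest in the cardiomyocyte list.

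Lyve1 is shared with lymphatic endothelium, whose 6 markers summed to 111, 222 and 232 FPKM in the MI libraries and 22.5 to 27.0 FPKM in the sham libraries at 8 weeks. Of those 6, 5 were higher and 1 lower at 8 weeks, against 70.4 and 10.6% of all genes. At 1 day, when Lyve1 was also higher, 2 were higher and 2 lower, close to the 39.7 and 30.6% of all genes. Ccl21a, a lymphatic chemokine, averaged 135 ± 43.5 FPKM in MI libraries and 12.5 ± 2.24 FPKM in sham libraries at 8 weeks, but 2.30 ± 0.35 FPKM in MI libraries and 18.8 ± 1.91 FPKM in sham libraries at 1 day (s.d., n = 3 each). Prox1, the transcription factor that sets lymphatic identity, averaged 4.18 ± 1.00 FPKM in MI and 5.77 ± 0.58 FPKM in sham libraries at 8 weeks. The part of lymphatic, fat, mesothelial, fibroblast and muscle content in the resident gene levels was not tested.

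**Figure D3:**
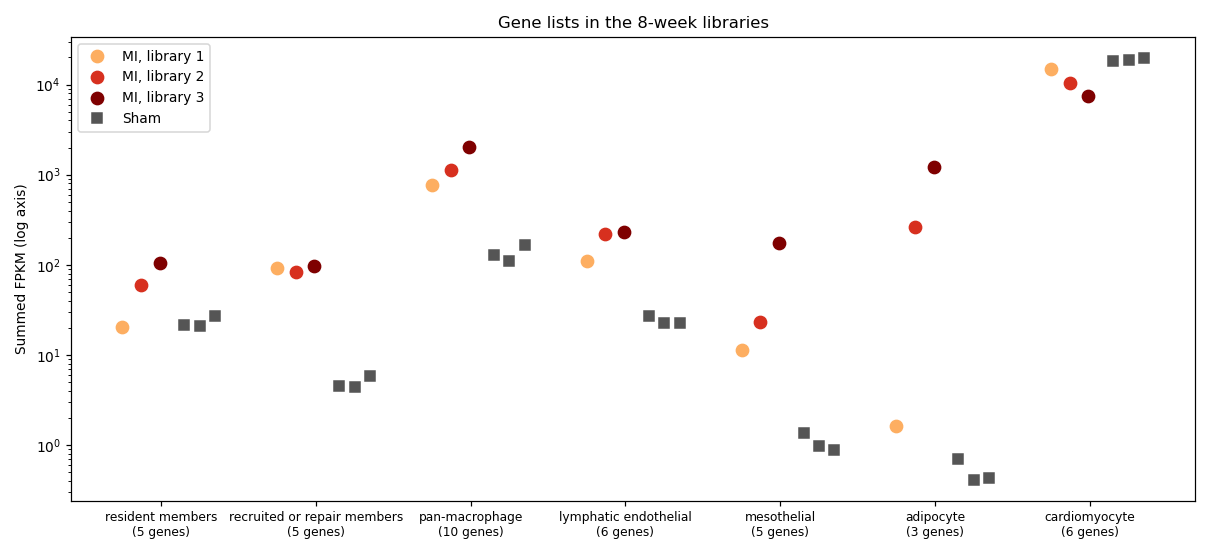
Summed FPKM of gene lists in the 8-week libraries, on a log axis, with the 3 MI libraries (circles, darker for higher library number) left of the sham libraries (grey squares). The resident genes sum to 20.3, 59.4 and 105 FPKM in MI libraries 1, 2 and 3, next to 92.1, 83.3 and 97.4 FPKM for the recruited or repair genes, and the adipocyte markers run over 1.64, 264 and 1215 FPKM.

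The change of MI against sham itself differed between stages for most members. These tests share the 1-week libraries and are given side by side. Between 1 day and 1 week the MI effect grew by 7.34 ± 0.24 log2 for Gpnmb (adjusted p = 2.26e-11), 4.19 ± 0.30 for Trem2 (adjusted p = 2.92e-08) and 1.28 ± 0.47 for Mrc1 (adjusted p = 0.0238). It fell by 4.77 ± 0.99 log2 for Chil3 (adjusted p = 0.000496), 2.90 ± 0.48 for Arg1 (adjusted p = 6.63e-05), 2.44 ± 0.27 for Ly6c2 (adjusted p = 1.49e-06) and 1.48 ± 0.55 for Lyve1 (adjusted p = 0.0252). Folr2 (0.72 ± 0.54, adjusted p = 0.243) and Cd163 (-1.11 ± 0.48, adjusted p = 0.0503) did not pass. Cd163 did pass under the 3 other scalings (-1.67 to -1.51, adjusted p of 0.00216 to 0.00320), with a pseudocount of 0.1 (-1.60, adjusted p = 0.0369) and with the replicate block (-1.11, adjusted p = 0.0473). It also passed without sham library 3 of 1 day (-1.25, adjusted p = 0.0444), or with MI library 1 or 3 of 8 weeks left out of the shared spread (adjusted p of 0.00483 and 0.00191). The Lyve1 call was lost without sham library 1 of 1 day, or MI library 3 or sham library 1 of 1 week (adjusted p of 0.0510 to 0.0648), and that of Mrc1 without sham library 3 of 1 day or 2 of 1 week (0.0595 and 0.0585). The growth for Mrc1 did not pass under the 3 other scalings, at 0.50 to 0.88, against a median over all genes of 0.56. In counts, 3 members grew and 4 shrank, where 60% of all genes grew and 11.8% shrank.

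Between 1 week and 8 weeks the MI effect fell by 2.53 ± 0.48 log2 for Arg1 (adjusted p = 0.000796), 1.44 ± 0.24 for Gpnmb (adjusted p = 0.000403) and 1.41 ± 0.30 for Trem2 (adjusted p = 0.00198). It grew by 1.53 ± 0.55 for Lyve1 (adjusted p = 0.0327), and this call was lost without any 1 of 7 of the 12 libraries of these stages, MI library 3 of 8 weeks among them (1.11, adjusted p = 0.0586). So 1 member grew and 3 shrank, against 17.1% and 29.9% of all genes. Chil3 had a difference of 0.00 ± 0.99 log2, but without MI library 2 of 8 weeks it fell by 1.33 (adjusted p = 0.00306).

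Within the MI libraries, at 1 week relative to 1 day, Gpnmb was higher by 6.66 ± 0.17 log2, Trem2 by 4.14 ± 0.21, Mrc1 by 1.44 ± 0.33 and Folr2 by 0.96 ± 0.38. Over the same interval Chil3 fell by 6.05 ± 0.70 log2, Arg1 by 4.57 ± 0.34, Ly6c2 by 2.71 ± 0.19, Lyve1 by 1.14 ± 0.39 and Cd163 by 1.07 ± 0.34. All 9 passed in limma, with adjusted p from 3.32e-13 for Gpnmb to 0.0315 for Folr2. Both sets therefore split, 2 resident and 2 recruited or repair genes being higher and 2 and 3 lower, where 63% of all genes were higher and 15.5% lower. Folr2 did not pass under the 3 other scalings, at 0.29 to 0.45, nor without MI library 1 or 3 of 1 day or 1 or 2 of 1 week (adjusted p of 0.0691 to 0.0809).

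At 8 weeks of MI relative to 1 week, Arg1 fell by 2.73 ± 0.34 log2 (adjusted p = 7.88e-06), Trem2 by 2.11 ± 0.21 (adjusted p = 1.50e-06) and Gpnmb by 1.54 ± 0.17 (adjusted p = 3.73e-06). Lyve1 was higher by 1.62 ± 0.39 (adjusted p = 0.00190) and Cd163 by 0.87 ± 0.34 (adjusted p = 0.0328). Without MI library 3 of 8 weeks the Cd163 difference was 0.32 (adjusted p = 0.190), and the call was also lost without MI library 2 of 8 weeks, or 2 or 3 of 1 week (adjusted p of 0.0546 to 0.0853). Higher and lower calls thus numbered 2 and 3 members, against 20.3% and 49% of all genes. Members not called here depended on single MI libraries of 8 weeks. Without library 3 Mrc1 was lower (-1.06, adjusted p = 0.00126), and without library 2 Chil3 was lower (-1.38, adjusted p = 0.000119). Without library 1 Folr2 was higher (0.78, adjusted p = 0.0270).

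Of the sham groups, those of 1 day and 1 week were compared, and 1 member of 9 differed. At 1 day relative to 1 week of sham, Arg1 was higher by 1.67 ± 0.34 log2 (adjusted p = 0.0183), with the 3 sham libraries of 1 day all above those of 1 week, and no member was lower. Over all genes 0.957% were higher and 0.459% lower. Gpnmb at 0.68 ± 0.17 log2 did not pass (adjusted p = 0.0642), and did with a pseudocount of 0.1 (adjusted p = 0.00157). The Arg1 call was lost without sham library 2 or 3 of either stage, at adjusted p of 0.0868 to 0.124.

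Macrophage genes as a whole were far higher in MI, so each member was also set against them within its library. Each level was taken as its log2(FPKM + 1) minus the mean of 10 pan-macrophage genes, among them Mpeg1, Ctss, Cd68 and Lyz2, all 10 of which were higher in MI at each stage with median fold changes of 2.50, 4.11 and 2.88 log2. Their mean was higher by 2.34, 4.25 and 2.69 log2 by rising stage, so a gene with no change would stand at -2.34, -4.25 and -2.69 on this scale. Some of them, such as Tyrobp, Laptm5 and Lyz2, are also genes of neutrophils, whose markers were high in the same 1-day libraries, and their part in the reference was not tested. The MI minus sham difference of this relative level, by rising stage, was -1.19, -4.58 and -1.48 for Lyve1 and -2.60, -3.79 and -1.78 for Folr2. It was -2.08, -5.09 and -3.24 for Cd163 and -1.71, -2.34 and -1.0 for Mrc1. For Timd4 it was -2.70, -4.78 and -2.52, at values so near 0 FPKM that they left little room to fall on this scale. For each of these 5 genes, every MI library lay below every sham library at every stage, and each exact two-sided permutation test gave p = 0.1, the smallest 3 against 3 allow. A gene with no change in FPKM would also stand lower in MI on this scale. The separation and its p therefore cannot tell these genes from unchanged ones, and the share of all genes that separate this way was not computed. These differences contain the rise of the reference genes and do not by themselves show a fall of the resident genes. In FPKM, Lyve1 was called higher at 1 day, Mrc1 at 1 week, and Lyve1, Folr2 and Mrc1 at 8 weeks, while Cd163 was called lower at 1 week. Folr2 and Timd4 at 1 day, Lyve1, Cd163 and Timd4 at 1 week, and Cd163 at 8 weeks lay below the value of an unchanged gene. The other differences lay above it.

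Relative to the pan-macrophage genes, the recruited or repair genes changed order with stage. Chil3 and Arg1 were above sham by 4.19 and 3.96 log2 at 1 day, and Ly6c2 by 0.97. At 1 week Chil3 and Ly6c2 had differences of -2.49 and -3.39, and Arg1 of -0.86. These values contain the rise of the reference genes and lie above the -4.25 of an unchanged gene. All 3 genes were called higher in FPKM at 1 week. Trem2 and Gpnmb had the opposite course: by rising stage, Trem2 had -0.98, 1.30 and 1.46, and Gpnmb -2.79, 2.64 and 2.76. At 8 weeks the other 3 were at -0.92 for Chil3, -1.82 for Arg1 and -2.30 for Ly6c2, all above the -2.69 of an unchanged gene. The exact permutation p was 0.1 for every one of these differences except Chil3 at 8 weeks (exact permutation p = 0.4).

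**Figure D4:**
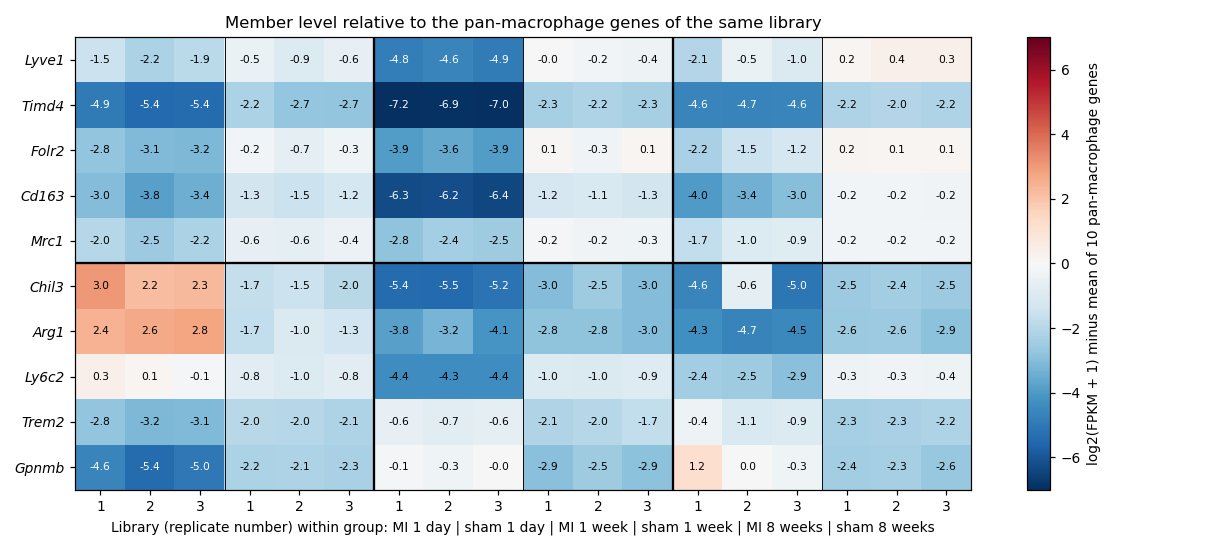
Log2(FPKM + 1) of each gene minus the mean of 10 pan-macrophage genes of the same library, by stage, with MI left of sham and 3 libraries per group. Blue is below and red above the pan-macrophage mean. The 5 resident genes are bluer in MI than in sham at all stages, most so at 1 week, where the difference reached -5.09 for Cd163, while Chil3 and Arg1 are red only in MI at 1 day. Because the reference genes rose, a gene with no change would have a difference of -4.25 at 1 week.

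Genes that accompany the members in known macrophage states were counted next, by lists chosen with earlier results of these data known. The counts stand against 39.7, 72.8 and 70.4% of all genes higher and 30.6, 16.5 and 10.6% lower by rising stage. Of 12 further monocyte genes, all 12 were higher at each stage, with median fold changes of 4.14, 3.11 and 1.65 log2 by rising stage. Among them Il1b, an inflammatory cytokine, averaged 133 ± 62.7 FPKM in MI and 1.47 ± 0.68 FPKM in sham libraries at 1 day, and Plac8 73.6 ± 8.90 and 1.76 ± 0.59 FPKM (s.d., n = 3 each). Thbs1 and Fn1 were highest at 1 week, with log2 fold changes of 6.50 ± 0.62 and 6.99 ± 0.45. Both are also matrix genes of other cells. Of 9 growth and recruitment signals, 7 were higher at 1 day and all 9 at both later stages, including Ccl2, the main ligand of the monocyte receptor CCR2, with 218 ± 70.4 FPKM in MI and 10.7 ± 2.12 FPKM in sham libraries at 1 day. Il4ra, the receptor chain for interleukin 4 and 13, had 59.6 ± 11.9 FPKM in MI and 3.27 ± 0.47 FPKM in sham libraries at 1 day.

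The lipid and repair list holds known companions of Trem2 and Gpnmb. At 1 day 11 of its 17 genes were higher and 2 lower, and at each later stage 15 were higher and 1 lower. The median fold changes were 1.35, 2.95 and 2.89 log2 by rising stage. Spp1, osteopontin, had 616 ± 33.9 FPKM in MI and 0.40 ± 0.07 FPKM in sham libraries at 1 week. Apoe, the lipid carrier, had 3513 ± 350 FPKM in MI and 137 ± 23.2 FPKM in sham libraries at 1 week. Lgals3, galectin 3, rose by 6.41 ± 0.21 log2 at 1 week (adjusted p = 4.36e-12), and Mmp12, macrophage elastase, by 5.49 ± 0.17 log2 at 8 weeks (adjusted p = 4.28e-12). Tyrobp, the Trem2 adaptor, had 352 ± 124 FPKM in MI and 20.4 ± 4.81 FPKM in sham libraries at 1 day and 328 ± 36.5 and 18.5 ± 4.24 FPKM at 1 week. In these bulk libraries the adaptor RNA was thus at its high level a stage before that of Trem2. Tyrobp is also a gene of neutrophils, whose markers were high at 1 day, and which cells held its RNA was not tested. Of 5 genes of the TREM family and the related adaptor Hcst, the number higher was 5, 4 and 2 by rising stage. Trem1, the inflammatory relative on neutrophils and monocytes, had 33.6 ± 11.9 FPKM in MI and 0.14 ± 0.07 FPKM in sham libraries at 1 day.

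Around Arg1, arginine and ornithine metabolism was read from 10 genes. At 1 day 8 of them were higher and 2 lower, at 1 week 7 were higher and 1 lower, and at 8 weeks 6 were higher and none was lower. The numbers higher at 1 week and 8 weeks were near or below the 72.8 and 70.4% of all genes. Arg2, the mitochondrial arginase, had 16.0 ± 6.62 FPKM in MI and 0.14 ± 0.05 FPKM in sham libraries at 1 day, and Nos2, which uses arginine to make nitric oxide, had 19.7 ± 1.82 FPKM in MI and 2.10 ± 0.32 FPKM in sham libraries. Nos2 had -0.17 log2 at 1 week and at 8 weeks and did not pass (adjusted p = 0.228 and 0.235). Slc7a2, an arginine transporter, was higher by 3.52 ± 0.27 log2 and Ass1, which remakes arginine from citrulline, by 2.67 ± 0.32 log2 at 1 week. Chil1, a second chitinase-like gene, was higher by 3.49 ± 0.45 log2 at 1 day (adjusted p = 3.60e-06) and also at 8 weeks, by 3.37 log2.

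A list of 13 further resident macrophage genes moved less evenly. At 1 day 6 were higher and 1 lower, at 1 week 6 were higher and 2 lower, and at 8 weeks 12 were higher and none was lower. The 6 of 13 were near the share of all genes at 1 day, 39.7%, and below it at 1 week, 72.8%. The median fold changes were 0.43, 1.08 and 1.73 log2 by rising stage. Ccl8, a chemokine of resident-like macrophages, had 43.5 ± 6.79 FPKM in MI and 0.84 ± 0.63 FPKM in sham libraries at 1 week. Stab1, a scavenger receptor, had 50.8 ± 3.02 FPKM in MI and 7.93 ± 1.49 FPKM in sham libraries at 1 week. Gas6, a bridge to dying cells, had 14.6 ± 1.01 FPKM in MI and 38.3 ± 2.24 FPKM in sham libraries at 1 day, and 219.8 ± 15.6 FPKM in MI and 39.8 ± 2.37 FPKM in sham libraries at 1 week. Retnla, another interleukin 4 response gene, had 8.19, 24.1 and 81.7 FPKM in the MI libraries and 2.54, 3.62 and 2.52 FPKM in the sham libraries at 8 weeks, with library 3 highest, as for the resident members. At 1 week Retnla had 0.858, 0.242 and 0.518 FPKM in the MI libraries and 5.67, 4.01 and 3.71 FPKM in the sham libraries, lower by -1.83 ± 0.54 log2 (adjusted p = 0.00447). The lower genes of these lists that the naming rule leaves out, chosen after their values were seen, were Mgl2 (-1.04 log2 at 1 week), Lpl (-1.80, -2.93 and -1.17 log2 at the 3 stages), Syngr1 (-1.16 at 1 day), Oat (-0.76 at 1 day) and Sms (-0.67 at 1 day and -0.73 at 1 week).

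**Figure D5:**
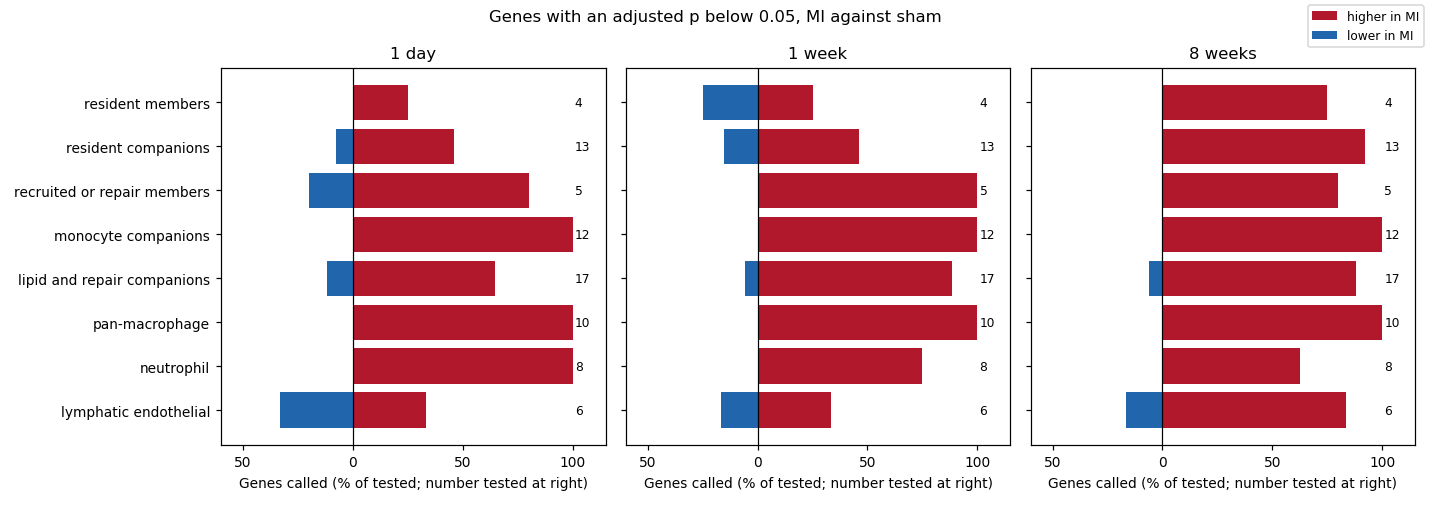
Share of the genes tested in each list that were higher (red, right) or lower (blue, left) in MI with an adjusted p below 0.05, by stage, with the number tested at the right. The background over all genes was 39.7, 72.8 and 70.4% higher and 30.6, 16.5 and 10.6% lower. Monocyte companions and pan-macrophage genes reach 100% at every stage, whereas resident companions have 6, 6 and 12 of 13 genes higher.

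Some members share sequence with other genes. The longest Ly6c2 transcript was 97.6% identical to that of Ly6c1, an endothelial gene, over 822 aligned bases with a longest identical run of 188 bases. Ly6c1 had 87.2, 84.6 and 103 FPKM in MI libraries and 119, 127 and 141 FPKM in sham libraries at 1 day, opposite in direction to Ly6c2. Chil3 was 94.3% identical to Chil4, with a longest identical run of 136 bases. Chil4 was looked for and not found by symbol among the genes of the deposited table. How shared fragments were divided is not given in the sources used here, so the Ly6c2 and Chil3 levels are uncertain to that extent. Folr2, Cd163, Mrc1 and Arg1 overlap the annotated genes Gm10602, Gm52877, Mir511 and Gm40616, and no strand setting is given.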

How the data were processed

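The authors deposited FPKM for 16415 genes in 18 mRNA libraries, without counts, together with log2 columns that the authors normalized between libraries. The submitters' processing notes name TopHat2 2.0.13, Bowtie2 2.2.3, Cufflinks 2.2.1 and build mm10, with no options. Deposited columns of fold changes and p-values hold the authors' own comparisons and were not used, nor were the 18 small RNA libraries.

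Log2(FPKM + 1), which understates the change of low genes, was analysed for 12858 genes that reached 1 FPKM in 3 or more libraries. One model with 6 groups and 12 residual degrees of freedom was fitted in limma 3.58.1 (R 4.3.3) with an intensity trend. Benjamini-Hochberg adjustment ran over all genes, with a threshold of 0.05. Timd4, under the filter, and levels relative to pan-macrophage genes were compared by exact permutation. The limma script was tested on simulated data. No libraries were copies: the highest correlation was 0.9973. Positions and promoters are from RefSeq GRCm38.p6, the patch release of mm10. Python 3.11.15 and pandas 2.3.3 were used.

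The text names all 10 members, at most 4 genes of a companion or cell type list by the largest significant change of MI against sham, near-identical copies and the Trem2 adaptor, and for each tested member the 3 genes most correlated with it. The members and lists were chosen with earlier results of these data known. Alternatives were a pseudocount of 0.1, no filter, a filter at a mean of 5 FPKM, 3 other scalings (quantile, median-ratio and the authors' normalized log2 values), each stage alone, the replicate block, no trend and leaving out each library.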

Additional observations from a re-analysis of the deposited data

Results flagged for a closer look

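The following members differed in their MI against sham change between stages by a limma test of that difference with an adjusted p below 0.05. From 1 day to 1 week the log2 difference in change was 7.34 for Gpnmb, 4.19 for Trem2, 1.28 for Mrc1, -1.48 for Lyve1, -2.44 for Ly6c2, -2.90 for Arg1 and -4.77 for Chil3. From 1 week to 8 weeks it was 1.53 for Lyve1, -1.41 for Trem2, -1.44 for Gpnmb and -2.53 for Arg1. Trem2 and Gpnmb thus changed sign between the intervals, as did Lyve1 in the other direction, and the intervals share the 1-week libraries.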

How the results depend on the processing

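Of the 9 members tested, the number lower in MI at 1 week was 1, Cd163. With no filter it was 2, because Timd4 was then tested as well and called lower. With a mean of at least 5 FPKM it was 0, because Cd163 was then left out and not tested. It was 2 with quantile normalization, median-ratio factors or the authors' normalized values. At 8 weeks 7 were higher and 0 lower, and 3 and 1 under each of those 3 scalings; 4 were higher with each stage fitted alone. At 8 against 1 week of MI, 2 were higher, and 1 with the mean filter, under which Cd163 was not tested. At 1 day against 1 week of sham, 1 was higher, and 2 with a pseudocount of 0.1. Leaving out 1 library gave 0 to 1 lower in MI at each of the 3 stages, 4 to 8 higher at 8 weeks, 0 to 2 that grew from 1 week to 8 weeks, 1 to 3 higher at 8 weeks against 1 week of MI, 0 to 3 higher at 1 day against 1 week of sham, and 3 to 5 that shrank and 2 to 3 that grew from 1 day to 1 week. The Chil3 change from 1 week to 8 weeks was 0.00, and -1.33 without MI replicate 2 to 0.85 without MI replicate 1 of 8 weeks; the fall of the Arg1 effect from 1 day to 1 week (-1.04) and of the Trem2 effect from 1 week to 8 weeks (-0.59) did not pass with a pseudocount of 0.1. The cause was not tested. Of all calls, higher ones made up 81.5% at 1 week and 87.0% at 8 weeks, but 50.1 to 51.3% and 41.8 to 49.0% under the other scalings. Same-numbered MI and sham libraries had correlations of -0.09 to 0.29, and differently numbered ones of -0.31 to 0.21. These ranges overlap, and with 3 libraries per group they cannot show whether same-numbered libraries share more than a number. The replicate block changed 1 call, Cd163 from 1 day to 1 week (-1.11, adjusted p = 0.0473). Levels below 1 FPKM rest on few fragments: Chil3 and Arg1 had at most 22 in any sham library of 1 week and 8 weeks.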

Other observations

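The genes whose levels ran most like those of a member over the 18 libraries were found by Pearson correlation of log2(FPKM + 1), given as a description since libraries of a group share its condition. Trem2 ran closest to Dnase2a (r = 0.99), the lysosomal DNase that digests engulfed nuclei, Nlgn2 and Dnase1l1, and Gpnmb to Mfge8 (r = 0.99), a bridge to dying cells, Arhgef25 and Tex264. Arg1 ran closest to Cd300lf (r = 0.99), Uck2 and Csf3r, the receptor for granulocyte colony-stimulating factor, and Ly6c2 to Mctp2 (r = 0.99), Srgn and Mcemp1. Chil3 ran closest to Cdh1 (r = 0.97), Ube2d3 and Mphosph10.

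Among the resident genes, Mrc1 ran closest to Foxo1 (r = 0.99), Dek and Phlpp2, Folr2 to Fcna (r = 0.93), Dpp4 and Trarg1, Lyve1 to Nnat (r = 0.89), Cxcl14 and C7, and Cd163 to Gpd1 (r = 0.76), Ackr3 and Fam13a. Mrc1 correlated at 0.93 with Trem2 and 0.86 with Gpnmb, and with the resident genes Folr2 at 0.77, Lyve1 at 0.40 and Cd163 at -0.26. Chil3, Arg1 and Ly6c2 correlated with each other at 0.91 to 0.95, and Trem2 with Gpnmb at 0.95, but Trem2 or Gpnmb with those 3 at -0.09 to 0.29, so the recruited or repair set also split.

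Dendritic cell genes, another myeloid group, were higher for 3 of 5 and lower for 1 at 1 day, and higher for 4 of 5 at 1 week and 4 of 5 at 8 weeks, where 39.7, 72.8 and 70.4% of all genes were higher by rising stage. Cd209a led at 1 week, with 2.03 ± 0.18 log2, followed by Ccr7 with 1.56 ± 0.11. Of 6 relatives of the folate, scavenger and TIM receptors, 1 was lower at each stage, and the number higher was 2 at 1 day and 5 at both later stages, against the same shares of all genes. Cd5l, a secreted scavenger protein of macrophages, averaged 7.72 ± 0.55 FPKM in MI and 0.06 ± 0.03 FPKM in sham libraries at 1 week, and Havcr2, the TIM-3 receptor, 8.65 ± 1.48 and 0.17 ± 0.03 FPKM (s.d., n = 3 each). Cd36, a fatty acid receptor that heart muscle and endothelium also express, was the lower gene, with 89.6 ± 28.9 FPKM in MI and 440 ± 21.8 FPKM in sham libraries at 1 week. Prg4, a lubricin that peritoneal macrophages and mesothelium express, had 144 ± 32.3 FPKM in MI and 5.17 ± 0.82 FPKM in sham libraries at 1 day, and Selp of the same list was higher by 4.12 ± 0.26 log2. Gata6, a transcription factor of cavity macrophages and also of heart muscle, was lower by -0.48 ± 0.12 log2 at 1 day, when all 6 cardiomyocyte markers were lower too, with a median of -1.62 log2. All 4 genes of its list, Gata6 among them, were higher at 1 week, when the 6 cardiomyocyte markers had a median of -2.97 log2. By rising stage 2, 4 and 3 of those 4 genes were higher, against the same shares of all genes.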
